A study of Mus musculus with 19 samples.

Results

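The genes described here carry the Wnt signal at and near the cell surface: secreted Wnt ligands, their Frizzled receptors and LRP co-receptors, the alternative receptors Ror1, Ror2 and Ryk, secreted antagonists, the R-spondin arm, and 3 target and transcription factor genes (Axin2, Lef1 and Tcf7). They were chosen by symbol, and 40 genes were named. Of these, 39 had a probe set with that symbol alone on the array, out of 22180 genes with such a probe set. The expression of Tcf7 was not analysed here, while its promoter windows are counted below. A gene was tested where it reached the median of the table (a log2 intensity of 4.38) on at least 4 arrays, and 34 of the 39 did, out of 14231 genes tested. Wnt2, Wnt2b, Wnt6, Wnt10b and Lgr5 did not.

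Gene expression was measured on 19 flash-frozen mammary tumours, taken at end burden, of MMTV-NIC mice, in which the MMTV promoter drives activated ErbB2 together with Cre recombinase in mammary epithelium. All 4 groups carried this transgene: 6 tumours labelled NIC itgb1 fl/fl itgb3 fl/fl (double knockout), 4 labelled NIC itgb1 fl/fl (Itgb1 knockout), 4 labelled NIC itgb3 fl/fl (Itgb3 knockout) and 5 labelled NIC WT (control), whose integrin genes are intact. Integrins are the receptors that hold cells to the matrix. Cre is driven in the epithelium, while fibroblasts, vessels and immune cells in these whole tumours also give RNA. Which cells lost either gene was not measured. Ages were not in the labels, and although the titles give each tumour its own number, no label says that it stands for a mouse, so a p-value covers only the spread among the tumours at hand, which may be technical in part.

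The labels were first set against the transcripts they name. Itgb1 averaged 8.32 ± 0.48 (SD, n = 6) in tumours labelled double knockout, 8.70 ± 0.29 in Itgb1 knockouts (n = 4), 10.04 ± 0.20 in Itgb3 knockouts (n = 4) and 10.16 ± 0.19 in controls (n = 5), in log2 intensity. Itgb3 averaged 8.13 ± 0.39 in tumours labelled double knockout, 8.24 ± 0.51 in Itgb1 knockouts, 7.01 ± 0.48 in Itgb3 knockouts and 8.12 ± 0.25 in controls. Itgb3 was thus not lower in the tumours labelled double knockout than in controls (difference 0.01, SE 0.229, limma adjusted p = 0.986), and those tumours are called double-labelled below, with no statement on whether Itgb3 was deleted. Of the epithelial markers, Krt8 lay at 9.81 to 10.9, Krt18 at 11.0 to 11.9, Epcam at 11.1 to 11.6 and Cdh1 at 9.53 to 10.3. Krt19 lay lower, at 4.30 to 5.69, and reached the threshold on 18 of 19 arrays. The basal keratin Krt14 and the adipocyte gene Adipoq stayed below the threshold for testing on all 19 arrays. Other markers of those cells were tested, 6 of 10 basal and myoepithelial and 7 of 10 adipocyte markers. Col1a1 of fibroblasts, Pecam1 of endothelium, Cd3e of T cells and Adgre1 of macrophages reached the threshold on all 19 arrays.

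As background, a Wnt ligand that binds a Frizzled receptor together with LRP5 or LRP6 stops the breakdown of beta-catenin, which then joins T-cell factor proteins and switches on genes such as Axin2. Ligands such as Wnt5a can also signal through Ror2 and Ryk without beta-catenin, along routes that set cell polarity and movement. In the mammary gland, Wnt signals shape duct branching and the basal stem cell compartment, and insertions of the MMTV virus at Wnt genes have been linked to tumours.

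Among the Wnt genes tested, Wnt5a was higher in the double-labelled tumours than in controls, and no other member passed against control. Wnt5a also passed against Itgb3 knockouts but not against Itgb1 knockouts (limma adjusted p = 0.0903). Fzd5, a Frizzled receptor for Wnt5a and other ligands, differed from control by a similar amount but stayed just short of the threshold. Axin2, the common readout of beta-catenin signalling, had a slightly lower mean, within its spread. In tumours labelled for the loss of 1 integrin, no member passed in either direction.

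**Figure D1:**
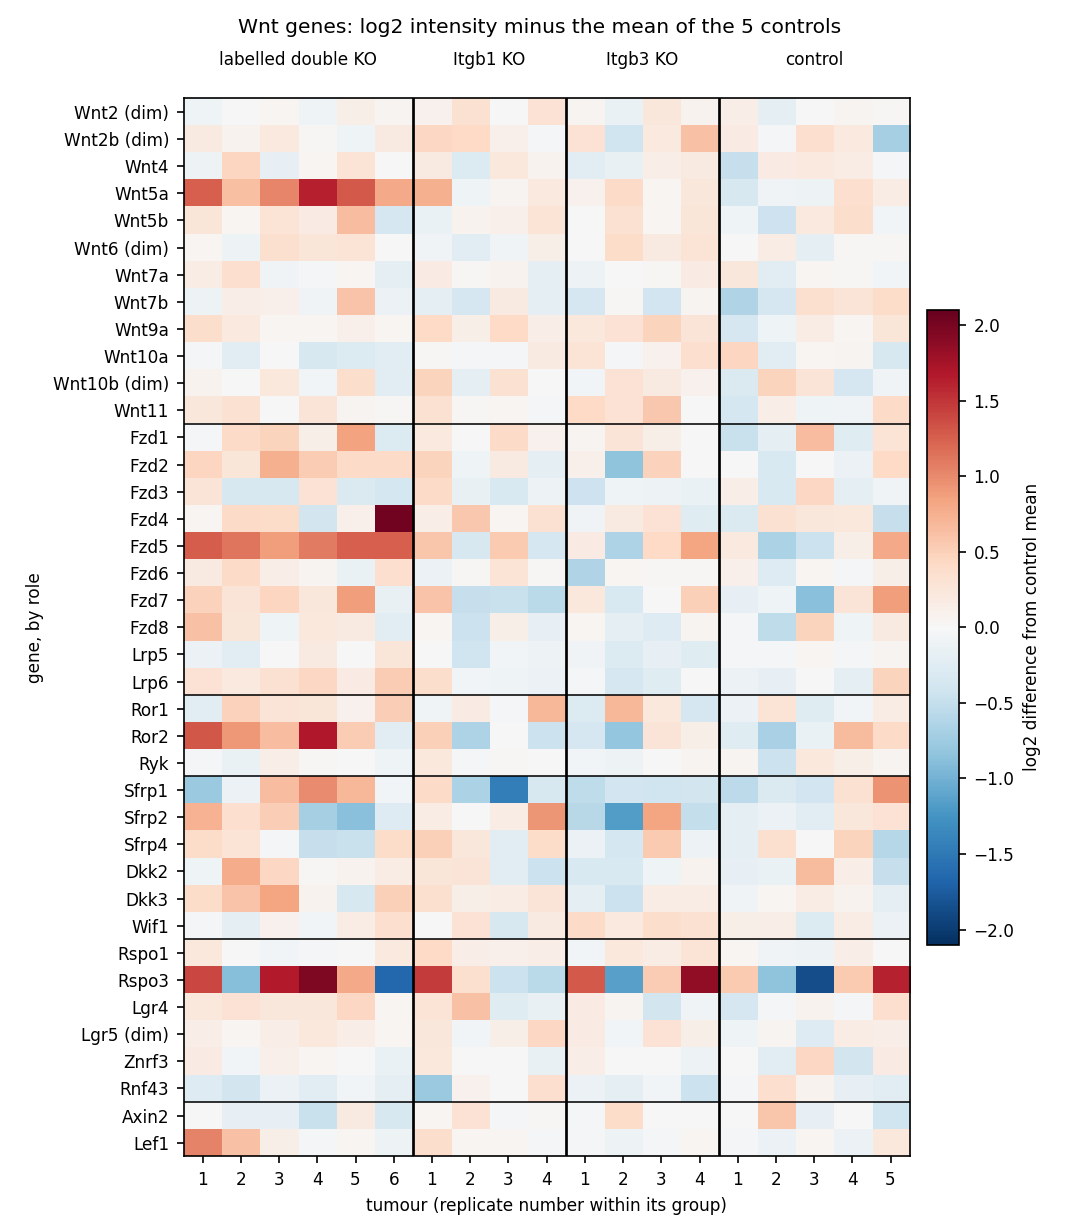
Log2 intensity of the 39 Wnt genes with a probe set (rows, grouped by role) in each of the 19 tumours (columns, grouped by label), each minus the mean of the 5 control tumours. Wnt5a and Fzd5 are above the control mean in all 6 double-labelled tumours, while Rspo3 is high in some tumours and low in others of every group.

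Wnt5a encodes a secreted ligand known for signalling without beta-catenin. Its log2 intensity was 5.02, 5.18, 5.42, 5.65, 5.67 and 6.01 in the double-labelled tumours. It was 4.30, 4.44, 4.60 and 5.13 in Itgb1 knockouts, and 4.42, 4.48, 4.62 and 4.79 in Itgb3 knockouts. In controls it was 4.06, 4.28, 4.31, 4.55 and 4.75. Every double-labelled tumour was above every control and every Itgb3 knockout, and 5 of 6 were above every Itgb1 knockout, the exception being the lowest double-labelled tumour against the highest Itgb1 knockout. The means were 5.49 ± 0.36 in double-labelled tumours and 4.39 ± 0.27 in controls, a difference of 1.10 on the log2 scale (SE 0.177), or 2.15-fold, with a limma adjusted p of 0.0094. The call was lost in a fit of only the double-labelled and control tumours (adjusted p = 0.0804). Controls lay around the median of the table and 2 of 5 reached it; the table holds no background measure, so the fold is that of the measured values. With every value under 4.38 raised to it the difference was 1.01 (adjusted p = 0.0117).

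The background of that comparison was 55 of 14231 genes past the threshold (0.386%), 42 higher (0.295%) and 13 lower (0.0913%), and 1 of the 34 members passed, upward. With each array centred on its own median the genes that passed split into 87 higher and 13 lower. At an unadjusted p under 0.05 there were 5 members, all higher, or 14.7% of the members tested, beside 16.9% of all genes. A higher value in every double-labelled tumour than in any control was seen for 2 members, Wnt5a and Fzd5 (5.88% of those tested), beside 1.19% of all genes, and a lower value in every one for 0 members, beside 0.597%. The difference was above 0 for 28 of the 34 members (82.4%), beside 55.9% of all genes, with a median of 0.16 over the members and 0.03 over all genes. The members share tumours, so their differences are not independent of each other.

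**Figure D2:**
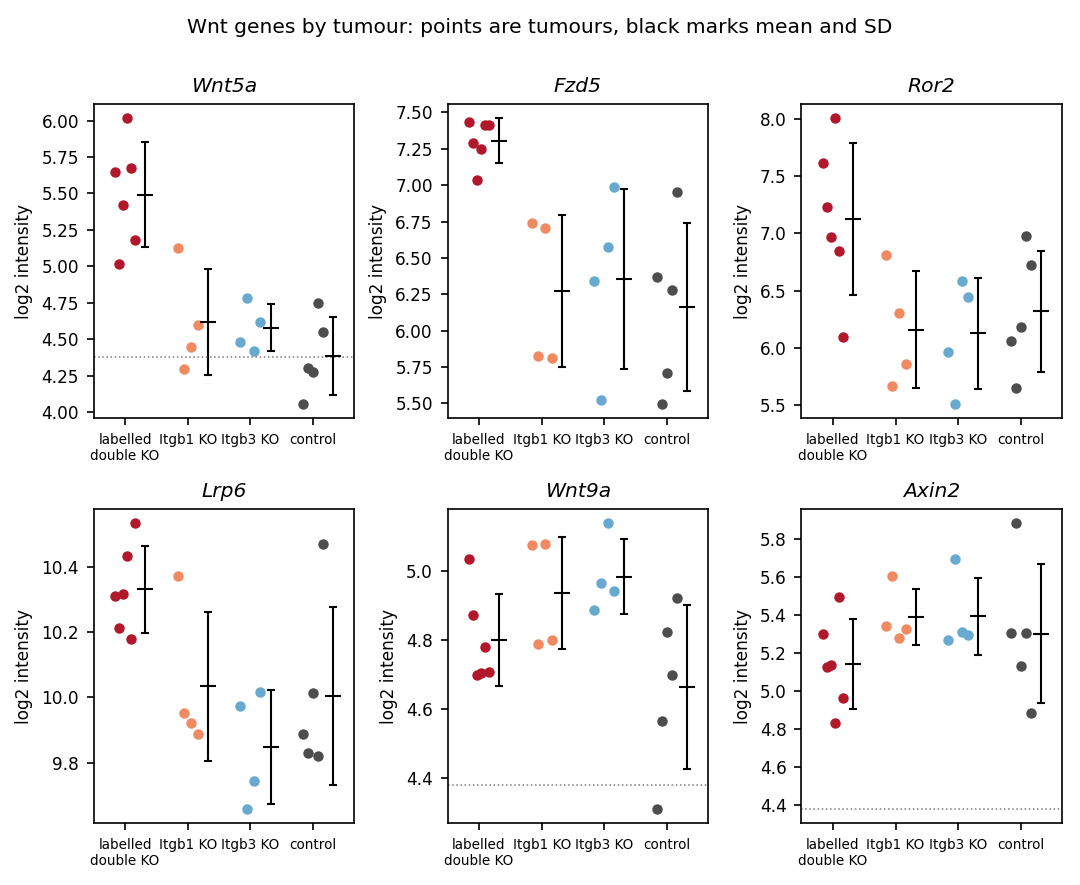
Log2 intensity of Wnt5a, Fzd5, Ror2, Lrp6, Wnt9a and Axin2, a panel each, with 1 point per tumour and black marks for the mean and SD of the group. The dotted line, drawn where values come near it, is the log2 intensity of 4.38 that a gene had to reach on at least 4 arrays. The 6 double-labelled tumours lie above all controls for Wnt5a and Fzd5, and groups overlap in the Axin2 panel.

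None of the other 7 ligands tested passed between double-labelled tumours and controls. Wnt5b, the closest relative of Wnt5a, was at 4.49 to 5.49 (median 5.06) in double-labelled tumours and at 4.42, 4.76, 4.78, 5.05 and 5.22 in controls (difference 0.17, SE 0.158, adjusted p = 0.609). Wnt11, another ligand known for polarity signalling, differed by 0.15 (adjusted p = 0.583). Wnt4, which acts downstream of progesterone in the mammary gland, differed by 0.08 (adjusted p = 0.814). Wnt7a differed by 0.04 and Wnt7b by 0.09. The ligand with the lowest difference was Wnt10a, at -0.19 (SE 0.124, adjusted p = 0.461). Of the 12 ligands named, 8 were tested, and Wnt2, Wnt2b, Wnt6 and Wnt10b reached the threshold for testing on 2, 1, 1 and 0 arrays in that order, with log2 intensities of 3.09 to 4.44. For these 4 the arrays give no usable comparison.

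Fzd5 had its highest group mean in the double-labelled tumours, and its adjusted p did not pass against any group in the main limma fit. Its log2 intensity was 7.04 to 7.43 (median 7.35) in double-labelled tumours, a narrow band. It was 5.81, 5.83, 6.70 and 6.74 in Itgb1 knockouts, and 5.52, 6.34, 6.58 and 6.99 in Itgb3 knockouts. Controls were at 5.50, 5.71, 6.28, 6.37 and 6.95. The 6 double-labelled tumours were above all 13 others, the closest values being 7.04 and, in an Itgb3 knockout, 6.99. Of all genes, 1.19% were higher in every double-labelled tumour than in any control. The share was 1.57% against Itgb1 knockouts and 5.88% against Itgb3 knockouts, and the share above all other groups at once was not counted. Against control the difference was 1.15 (SE 0.265, 2.21-fold), with an adjusted p of 0.0600 that did not pass. Without control tumour 5, the highest control, the difference was 1.34 and the adjusted p 0.0306, the only array whose removal made Fzd5 pass. Over the 19 arrays left out in turn the difference was 0.98 to 1.34, with the highest adjusted p, 0.154, without control tumour 2.

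For Ror2, a receptor of Wnt5a, the log2 intensity was 6.10 to 8.00 (median 7.10) in double-labelled tumours and 5.64, 6.06, 6.19, 6.72 and 6.98 in controls. The ranges overlapped, with 3 of 6 double-labelled tumours above every control. The difference of 0.81 (SE 0.313) had an adjusted p of 0.201. The promoter windows of these receptors, and of Axin2 as the readout of the pathway, are shown because the text turns on these genes. No window was matched for Wnt5a. They run from 250 bases before to 50 after the start in RefSeq, in the direction of the gene, on build GRCm38.p6: Fzd5 at chr1:64737701-64738000 (minus strand), Ror2 at chr13:53286075-53286374 (minus strand) and Axin2 at chr11:108920099-108920398 (plus strand). Capitals mark the GC box GGGCGG, or CCGCCC where it lies on the opposite strand, with overlapping matches counted apart.
Fzd5: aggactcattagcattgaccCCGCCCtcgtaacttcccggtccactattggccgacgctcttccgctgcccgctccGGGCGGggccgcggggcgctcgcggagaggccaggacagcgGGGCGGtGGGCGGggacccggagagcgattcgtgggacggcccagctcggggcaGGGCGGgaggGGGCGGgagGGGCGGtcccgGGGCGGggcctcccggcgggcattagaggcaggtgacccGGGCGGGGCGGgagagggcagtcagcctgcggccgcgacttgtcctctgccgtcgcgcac
Ror2: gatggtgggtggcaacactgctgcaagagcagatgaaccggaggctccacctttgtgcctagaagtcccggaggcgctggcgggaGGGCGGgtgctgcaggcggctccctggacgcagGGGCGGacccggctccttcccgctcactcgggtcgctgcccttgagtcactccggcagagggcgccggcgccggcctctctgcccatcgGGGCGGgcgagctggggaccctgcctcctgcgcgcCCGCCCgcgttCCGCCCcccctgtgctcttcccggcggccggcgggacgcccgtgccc
Axin2: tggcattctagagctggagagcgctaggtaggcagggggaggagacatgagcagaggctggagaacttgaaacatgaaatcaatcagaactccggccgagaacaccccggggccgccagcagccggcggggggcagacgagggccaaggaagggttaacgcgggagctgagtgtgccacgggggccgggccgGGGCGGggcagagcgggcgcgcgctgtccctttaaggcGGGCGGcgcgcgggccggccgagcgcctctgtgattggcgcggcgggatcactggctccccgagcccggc

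The Fzd5 window holds 10 GC boxes and is 75.7% G or C, the Ror2 window holds 5 and is 74.7%, and the Axin2 window holds 2 and is 70.0%. A RefSeq window was matched for 25 of the 40 named genes, with 33 windows in all. Wnt5a was not among the 25, so it was not searched. A GC box on either strand was in a window of 19 of the 25 (76.0%), beside 38.2% of the 27025 genes with a window. The windows of these genes had a median of 66.7% G or C and 24 CpG pairs, beside 52.7% and 7 over all 32851 windows, and a GC box is itself made of G and C only. The T-cell factor letters CTTTGAA or CTTTGAT, searched on both strands, were in a window of 2 of the 25, Wnt11 and Wnt5b (8.0%), beside 9.88% of all genes, and in none of the 3 windows printed. The letters TATAAA on the sense strand were in a window of 3 of the 25 (12.0%), beside 9.77% of all genes. A match is a match of letters and does not show that a factor binds there.

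Lrp6, the co-receptor that relays the signal to beta-catenin, was at 10.18 to 10.53 (median 10.31) in double-labelled tumours and at 9.82, 9.83, 9.89, 10.01 and 10.47 in controls. The difference was 0.33 (SE 0.127, adjusted p = 0.205), and control tumour 5 alone among the controls lay within the range of the double-labelled tumours. Fzd2 differed by 0.47 (SE 0.189, adjusted p = 0.222). Fzd4, which also serves as the receptor of Norrin, differed by 0.43 (SE 0.298, adjusted p = 0.486), and its highest double-labelled tumour was at 7.95 while the other 5 were at 5.54 to 6.32. Over the 10 Frizzled receptors and co-receptors the difference was above 0 for 9 in the deposited values (90%), beside 55.9% of all genes. The median was 0.29 beside 0.03 over all genes. With centred arrays 9 were above 0, and after quantile normalization 8. None of the 10 passed, and 3 had an unadjusted p under 0.05, beside 16.9% of all genes. Ror1 differed by 0.23 (adjusted p = 0.565), and Ryk, the third alternative receptor, by -0.02 (SE 0.105, adjusted p = 0.950). With centred arrays all 3 alternative receptors were above 0, so the sign for Ryk depends on the scaling.

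**Figure D3:**
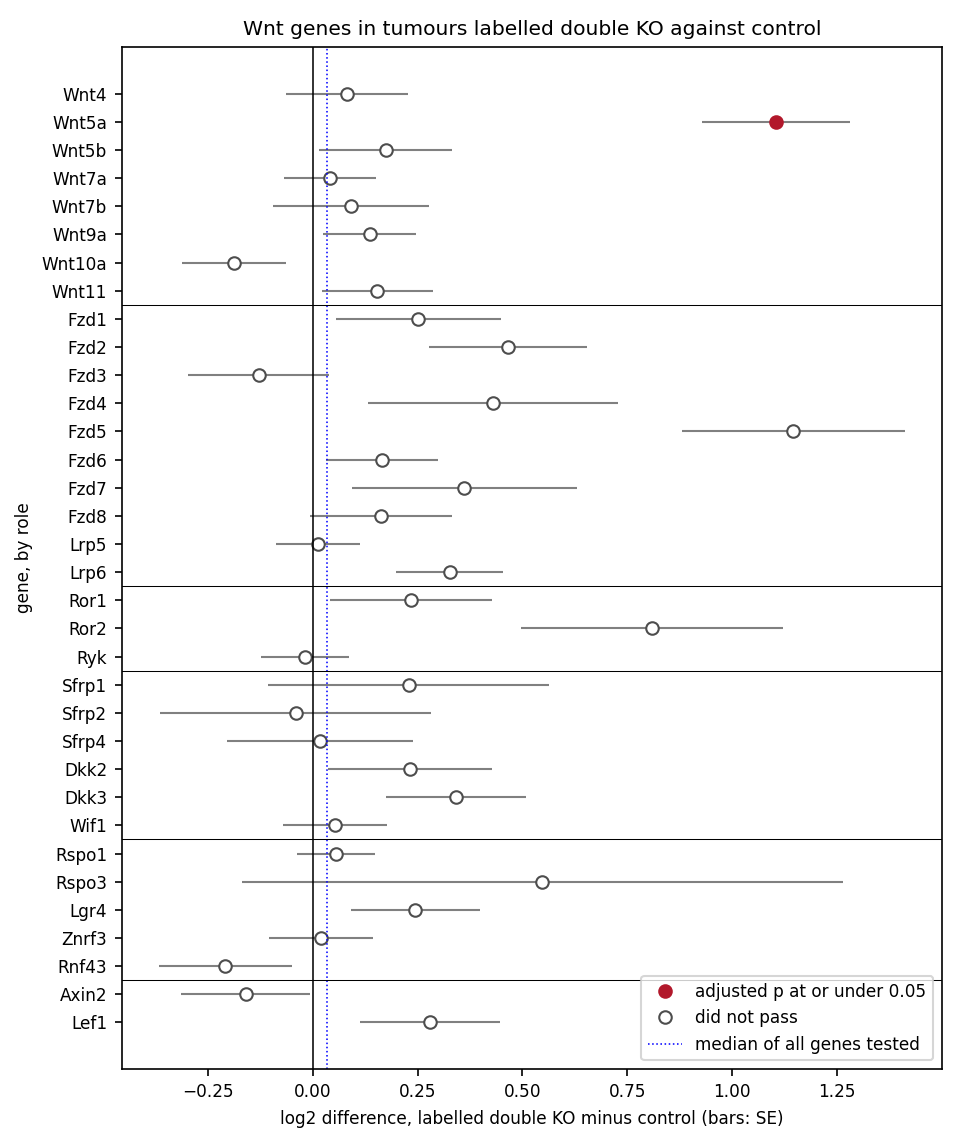
Difference in log2 intensity between the 6 double-labelled and the 5 control tumours for the 34 Wnt genes tested, grouped by role, with bars of 1 SE from the limma fit. The blue dotted line is the median of all genes tested. Wnt5a and Fzd5 lie farthest to the right, and 28 of the 34 points are above 0.

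Secreted antagonists bind Wnt ligands (the Sfrp genes and Wif1) or LRP co-receptors (Dkk2), while Dkk3 belongs to the same family as Dkk2 by sequence. None of the 6 tested passed in the double-labelled tumours. Dkk3 was at 5.04 to 6.20 (median 5.83) in double-labelled tumours and at 5.20, 5.31, 5.42, 5.45 and 5.54 in controls, a difference of 0.34 (SE 0.166, adjusted p = 0.307). Dkk2 and Sfrp1 each differed by 0.23, with adjusted p-values of 0.576 and 0.770. Sfrp2, Sfrp4 and Wif1 differed by -0.04, 0.02 and 0.05. With centred arrays all 6 were above 0, so the sign for the Sfrp2 probe set used depends on the scaling. A dimmer probe set of Sfrp2 differed by -0.20 in the deposited values.

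R-spondins are secreted proteins that bind Lgr4 or Lgr5 and take the ligases Rnf43 and Znrf3 off the cell surface, which leaves more Frizzled receptor there. None of the 5 genes of this arm that were tested passed. Lgr4 was at 8.43 to 8.83 (median 8.64) in double-labelled tumours and at 8.04, 8.36, 8.36, 8.47 and 8.76 in controls (difference 0.24, SE 0.154, adjusted p = 0.438). Rnf43, itself a target of beta-catenin in the intestine, differed by -0.21 (adjusted p = 0.527), Znrf3 by 0.02 and Rspo1 by 0.06. Lgr5, a marker of Wnt-responsive stem cells, lay at 3.41 to 4.12 over all 19 arrays and reached the threshold for testing on 0.

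Axin2 was at 4.83 to 5.50 (median 5.13) in double-labelled tumours and at 4.88, 5.13, 5.30, 5.31 and 5.88 in controls. The groups overlapped almost fully, and the difference was -0.16 (SE 0.154, adjusted p = 0.633). A dimmer probe set of Axin2 differed by 0.04. Lef1, which encodes a nuclear partner of beta-catenin and is also a target of it, was at 5.23 and 4.80 in double-labelled tumours 1 and 2 and at 4.07 to 4.30 in the other 4, against 4.05, 4.06, 4.15, 4.23 and 4.41 in controls. Its difference of 0.28 (SE 0.167) had an adjusted p of 0.407, and Lef1 reached the threshold for testing on 4 arrays only.

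The other genes of the pathway were taken from 5 lists with 94 genes, of which 75 were tested. In the double-labelled tumours against control, 1 of the 75 passed upward and 0 downward, beside 0.295% and 0.0913% of all genes. Of the 75, 49 were above 0 (65.3%), beside 55.9% of all genes, with a median of 0.07 beside 0.03. The one was Prkca, which encodes protein kinase C alpha, a kinase of the calcium route of Wnt signalling and of many other pathways. Prkca averaged 8.69 in double-labelled tumours and 7.46 in controls, a difference of 1.23 (SE 0.221, 2.34-fold, adjusted p = 0.0201), with 5 of 6 double-labelled tumours above every control. Celsr1, a planar polarity cadherin, differed by 1.21 (adjusted p = 0.0673), and Mapk9, which encodes a JNK kinase, by 0.53 (adjusted p = 0.0844). In the list of planar polarity and calcium genes, which holds these 3, 15 of 18 were above 0 (83.3%), with a median of 0.24. Of the 12 tested genes that respond to beta-catenin, 0 passed and 9 were above 0 (75%, and 8 after quantile normalization), with a median of 0.16.

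Marker genes of several other cell types also had higher mean levels in the double-labelled tumours than in controls. The mean over 15 fibroblast markers was 6.11 to 7.95 in double-labelled tumours, 6.83 to 7.45 in Itgb1 knockouts, 5.06 to 7.37 in Itgb3 knockouts and 6.43 to 7.40 in controls. Against control, 14 of the 15 were above 0 (93.3%), with a median of 0.56, and 0 passed. Of all genes, 55.9% were above 0, with a median of 0.03, and the marker counts that follow are to be read beside that share. Of the macrophage markers 12 of 13 were above 0, with a median of 0.23, and 1 passed. The 12 pericyte and smooth muscle markers averaged 6.94 to 7.55 in double-labelled tumours and 6.67 to 7.19 in controls, the 13 macrophage markers 7.00 to 7.91 and 6.84 to 7.54, and the 12 endothelial markers 6.07 to 6.70 and 5.94 to 6.48. Of these lists, 11 of 12 pericyte and 12 of 12 endothelial markers were above 0 and 0 passed. Also above 0 were 6 of 7 T and NK cell markers (median 0.30) and 5 of 6 basal and myoepithelial markers (median 0.23), of which 0 passed. Luminal markers were above 0 for 4 of 10 (median -0.06) and adipocyte markers for 5 of 7 (median 0.04, close to that of all genes). Fibroblasts are a known source of Wnt5a in the mammary gland, and in whole tumours more cells of a type and more RNA per cell cannot be told apart. Double-labelled tumour 5 had the lowest fibroblast mean of its group, below all 5 controls, with Wnt5a at 5.67 and Fzd5 at 7.41, and is 1 tumour only. With the fibroblast mean as a covariate in the limma fit, the Wnt5a difference from control was 1.13 (adjusted p = 0.0204). With that covariate the Wnt5a difference from Itgb3 knockouts did not pass (adjusted p = 0.0843). The covariate is itself RNA, so the part of fibroblasts or of the other cell types in these differences was not tested.

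**Figure D4:**
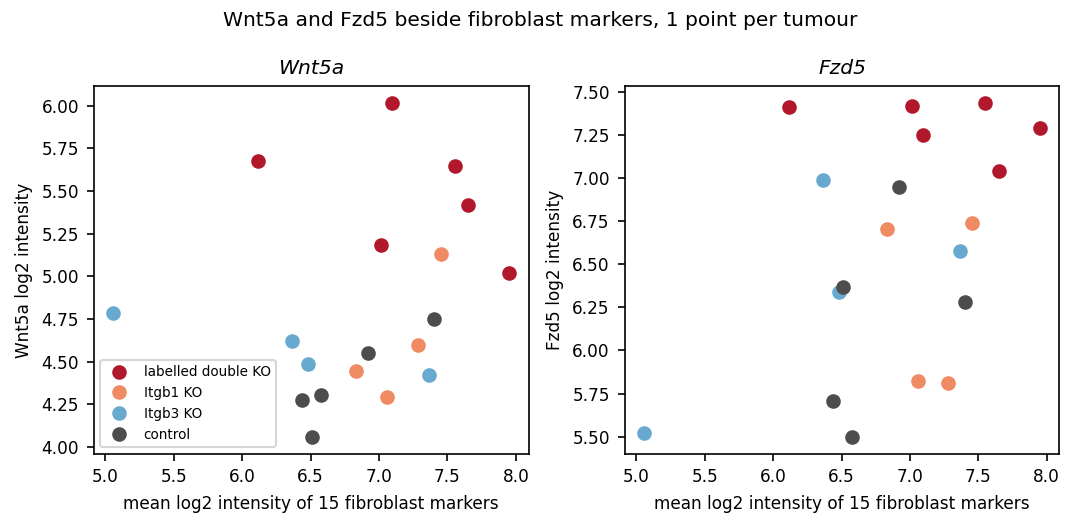
Log2 intensity of Wnt5a and of Fzd5 (vertical axes) against the mean log2 intensity of 15 fibroblast marker genes (horizontal axes), 1 point per tumour and colour by label. Double-labelled tumours lie above controls in both panels, and their fibroblast means overlap those of controls. The part of fibroblasts in these differences was not tested.

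Double-labelled tumours were next set against tumours labelled for the loss of 1 integrin, which share those 6 tumours with the comparison above. Against Itgb3 knockouts, Itgb1 differed by -1.72 and Itgb3 by 1.13 (limma adjusted p = 0.00055 and 0.0223). Those groups thus differed in both integrin transcripts, in opposite directions. Against Itgb3 knockouts, Wnt5a was higher by 0.91 (SE 0.189, 1.88-fold, limma adjusted p = 0.0182), and 1 of 34 members passed (2.94%), beside 408 of all genes (2.87%), 338 of them higher (2.38%) and 70 lower (0.492%). At an unadjusted p under 0.05 there were 7 members (20.6%), beside 21.1% of all genes. With centred arrays that split was 1173 higher and 53 lower, and the median of all genes was at 0.14 in place of 0.03, so the count of genes higher depends on the scaling. The Wnt5a call was lost without Itgb3 knockout 1, 3 or 4 in turn (adjusted p = 0.0662, 0.0544 and 0.0552) and with the fibroblast mean as a covariate (difference 0.97, adjusted p = 0.0843).

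Lrp6 came next in that comparison. It was at 9.66, 9.75, 9.97 and 10.02 in Itgb3 knockouts, so that all 6 double-labelled tumours, at 10.18 and above, were higher. The difference was 0.48 (SE 0.136, adjusted p = 0.0573). Fzd5 differed by 0.95 (SE 0.283, adjusted p = 0.0696) and Ror2 by 1.00 (SE 0.334, adjusted p = 0.0984). Wnt10a was at 5.02 to 5.36 (median 5.12) in double-labelled tumours, against 5.34, 5.45, 5.65 and 5.70 in Itgb3 knockouts, a difference of -0.37 that did not pass (SE 0.132, adjusted p = 0.123). A higher value in every double-labelled tumour than in any Itgb3 knockout was seen for 3 members (8.82%), Wnt5a, Fzd5 and Lrp6, beside 5.88% of all genes, and a lower value in every one for 0 members, beside 3.07%. Beside these, 15 of 15 fibroblast markers were above 0 (median 0.88), of which 1 passed, and 13 of 13 macrophage markers (median 0.58), of which 3 passed. Of all genes, 54.7% were above 0 in this comparison, with a median of 0.03. All 12 pericyte markers (median 0.49) and 11 of 12 endothelial markers (median 0.34) were above 0 and 0 passed. The part of any of these cell types in the differences of the members was not tested.

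Of the other pathway genes, 4 of 75 passed upward against Itgb3 knockouts and 1 downward, beside 2.38% and 0.492% of all genes. Prkca was higher by 1.61 (adjusted p = 0.00346) and Mapk9 by 0.76 (adjusted p = 0.0163). Bcl9, a co-activator of beta-catenin, was higher by 0.64 (adjusted p = 0.0253), and Camk2d, a calcium and calmodulin kinase, by 0.49 (adjusted p = 0.0337). Id2, which encodes an inhibitor of helix-loop-helix factors, was lower by 0.47 on the log2 scale (difference -0.47, adjusted p = 0.0466).

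Against Itgb1 knockouts no member passed in the limma fit, beside 3 of all genes (0.0211%), 2 of them higher (0.0141%) and 1 lower (0.00703%). At an unadjusted p under 0.05 there were 4 members (11.8%), beside 12.3% of all genes. Wnt5a differed by 0.88 (SE 0.189, 1.83-fold, adjusted p = 0.0903), Fzd5 by 1.04 (SE 0.283, adjusted p = 0.156) and Ror2 by 0.97 (SE 0.334, adjusted p = 0.247). Itgb1 knockout 1, at 5.13, was the highest of its group for Wnt5a, and without it the difference was 1.05 and passed (adjusted p = 0.0407). Over the 19 arrays left out in turn the difference was 0.77 to 1.05, with adjusted p-values of up to 0.305. All 6 double-labelled tumours were above all Itgb1 knockouts for Fzd5 alone among the members (2.94%), beside 1.57% of all genes, and below them for 0 members, beside 1.12%. The difference was above 0 for 24 of the 34 members (70.6%), beside 51.1% of all genes. None of the 75 other pathway genes passed, and the leading ones were Prkca at 1.20 (adjusted p = 0.0851) and Celsr1 at 1.24 (adjusted p = 0.140).

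In Itgb1 knockouts against control, 0 of the 34 members passed, beside 1 of all genes (0.00703%), and 1 member had an unadjusted p under 0.05 (2.94%), beside 4.86% of all genes. That member was Wnt9a, a ligand that can act through beta-catenin, at 4.79, 4.80, 5.07 and 5.08 in Itgb1 knockouts and 4.31, 4.57, 4.70, 4.82 and 4.92 in controls. The groups overlapped, and the difference was 0.27 (SE 0.123, adjusted p = 0.982). Rspo1 differed by 0.20 (SE 0.103) and Sfrp1 by -0.52 (SE 0.372), both with an adjusted p of 0.982. Wnt5a, at 0.23 (SE 0.197), had an adjusted p of 0.982 too. Differences were above 0 for 25 of 34 members (73.5%), beside 55.9% of all genes, with a median of 0.07 beside 0.02. No member lay wholly above or wholly below control, beside 0.731% and 0.45% of all genes. None of the 75 other pathway genes passed, and those with the smallest p were Mapk9 at 0.50 and Tcf7l1, a T-cell factor known as a repressor, at -0.52 (adjusted p = 0.982 each).

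In Itgb3 knockouts against control, no gene passed in the limma fit (0% of all genes), while 874 genes (6.14%) and 3 members (8.82%) had an unadjusted p under 0.05. The 3 were Wnt9a, Wif1 and Wnt11. Wnt9a was at 4.89, 4.94, 4.97 and 5.14 in Itgb3 knockouts, against the control values above, a difference of 0.32 (SE 0.123, adjusted p = 0.796). Wif1, a secreted antagonist, was at 4.57, 4.69, 4.74 and 4.77 in Itgb3 knockouts and 4.09, 4.25, 4.49, 4.51 and 4.53 in controls, without overlap but by only 0.32 (SE 0.138, adjusted p = 0.796). Wnt11 differed by 0.32 (SE 0.147, adjusted p = 0.805). Lrp5, the other co-receptor, was at 9.50, 9.53, 9.61 and 9.72 in Itgb3 knockouts and 9.74, 9.74, 9.76, 9.83 and 9.84 in controls, also without overlap (difference -0.19, SE 0.111, adjusted p = 0.845). A group without overlap was thus seen for 1 member upward and 1 downward (2.94% each), beside 1.17% of all genes in either direction. Of the 34 members, 16 were above 0 (47.1%), beside 47.6% of all genes, and none of the 75 other pathway genes passed.

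Whether the double-labelled tumours differed from control by more than the sum of both other groups' differences was asked with the interaction term, which uses all 4 groups. No gene passed (0%) in the limma fit, while 1777 genes (12.5%) and 7 members (20.6%) had an unadjusted p under 0.05. The term was above 0 for 21 of the 34 members (61.8%), beside 50.8% of all genes. Wnt9a had the smallest p, with an interaction of -0.45 (SE 0.170, adjusted p = 0.299): it was 4.80 ± 0.13 in double-labelled tumours, 4.94 ± 0.16 in Itgb1 knockouts, 4.98 ± 0.11 in Itgb3 knockouts and 4.66 ± 0.24 in controls. Wnt5a had an interaction of 0.68 (SE 0.273, adjusted p = 0.316) and Ror2 one of 1.16 (SE 0.481, adjusted p = 0.333). For Wnt5a, neither more than the sum nor the sum alone is shown by this test. Itgb3 was not lower in the double-labelled tumours than in controls, so the term follows the labels and not a measured loss of both transcripts.

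The members also varied among tumours of the same group. Rspo3, a secreted activator of the pathway, had a within-group SD of 1.32, at the 99.7th percentile of all genes tested. Its log2 intensity was 3.60 to 7.21 (median 6.36) in double-labelled tumours and 4.68, 4.80, 5.58 and 6.71 in Itgb1 knockouts. It was 4.12, 5.79, 6.53 and 7.11 in Itgb3 knockouts, and 3.39, 4.40, 5.80, 5.80 and 6.87 in controls. All 4 groups held both low and high tumours, and the range over all arrays was 14.1-fold. Sfrp1, Sfrp2, Ror2 and Fzd4 followed, with within-group SDs of 0.608, 0.586, 0.566 and 0.538. The least variable were Rspo1 at 0.127 and Lrp5 at 0.145. The median within-group SD was 0.285 over the 34 members and 0.242 over all genes tested.

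**Figure D5:**
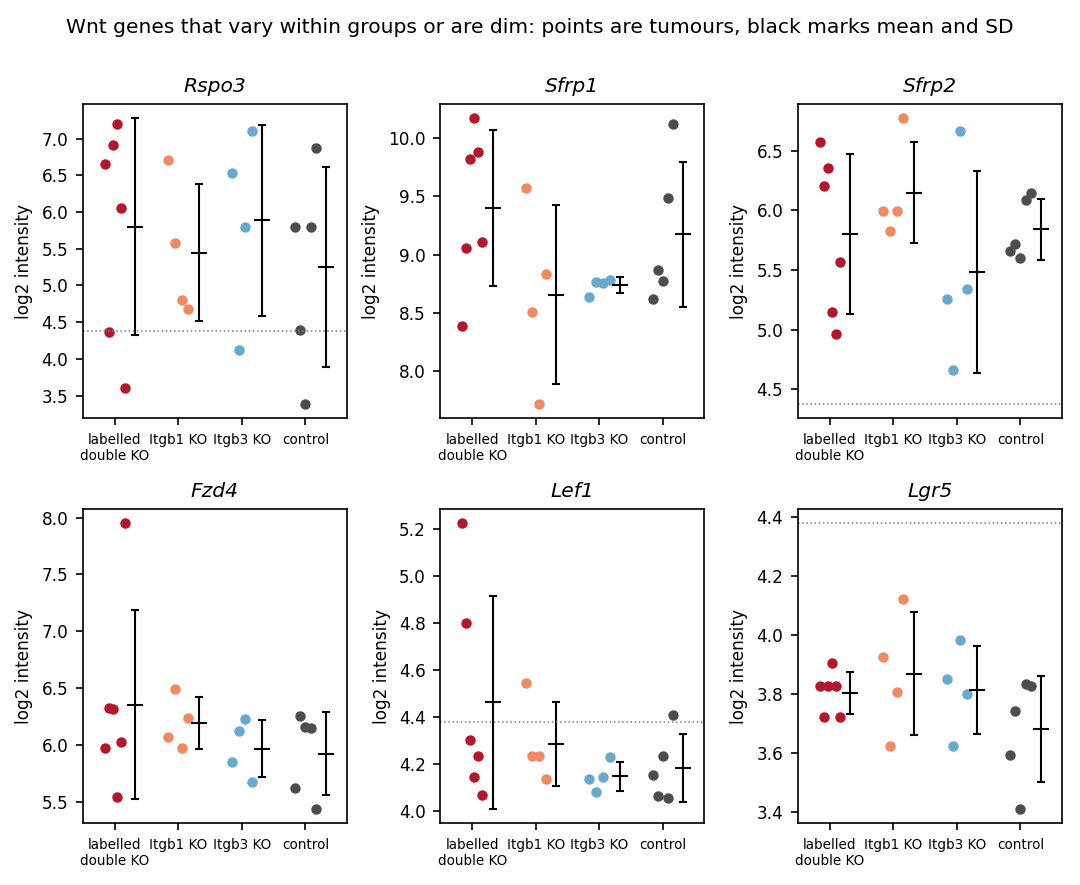
Log2 intensity of Rspo3, Sfrp1, Sfrp2, Fzd4, Lef1 and Lgr5, a panel each, with 1 point per tumour and black marks for the mean and SD of the group. The dotted line, drawn where values come near it, is the log2 intensity of 4.38 that a gene had to reach on at least 4 arrays. Rspo3 spreads over 3.39 to 7.21 with high and low tumours in every group, and Lgr5 stays below the line on all arrays.

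Within groups, a few tumours held the extremes of many members. The same count over all genes was not made, so these counts are not read as a trait of the Wnt genes. Itgb1 knockout 1 had the highest value of its 4 tumours for 18 of the 34 members, including Wnt5a, Fzd5, Fzd7, Lrp6, Ror2, Sfrp1 and Rspo3. Control tumour 5 had the highest of its 5 for 14 members, including Fzd5, Fzd7, Lrp6, Sfrp1 and Rspo3, and Itgb3 knockout 4 the highest of its 4 for 14, including the same 5. In the double-labelled group each tumour had the highest value for 4 to 8 members. Lowest values gathered too: Itgb3 knockout 2 had the lowest of its 4 for 14 members, including Fzd5, Fzd7, Lrp6, Ror2 and Rspo3. Double-labelled tumour 6 had the lowest of its 6 for 12 members, including Fzd7, Ror2 and Rspo3, beside 3 to 6 in the other 5, and Itgb1 knockout 2 the lowest of its 4 for 12, including Wnt5a and Ror2. Fzd7, a receptor active in mammary stem cells, was at 9.20 in Itgb1 knockout 1 against 8.04 to 8.13 in the other 3 of its group, and at 9.47 in control tumour 5 against 7.73 to 8.87 in the other 4.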

How the data were processed

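Gene expression was measured on 19 arrays, 1 per tumour. The deposited table holds log2 values of 41345 probe sets, which the authors normalized with Affymetrix Expression Console, per the submitters' processing notes, from total RNA isolated with a Qiagen RNeasy kit, per the labels' protocols. Its version, and how background was corrected and probes summarized, are not given here, and scan dates were not analysed. Array medians were 4.32 to 4.48, and the most similar arrays correlated at 0.984. The number of arrays limits the precision.

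Gene names came from the platform annotation, where 23521 probe sets had 1 symbol, 1814 several and 16010 none. Probe sets with 1 symbol were kept where 4 or more arrays had a log2 value of 4.38 (the table's median) or above, and the set with the highest mean stood for its gene. Differences were fitted with limma's lmFit and eBayes (limma 3.58.1, R 4.3.3) on all 19 arrays with 1 mean per group, two-sided, with Benjamini-Hochberg adjustment over the 14231 genes and a threshold of 0.05. The code was tested on simulated data. Alternatives covered filters, scaling, array weights, probe set averaging, a fibroblast covariate and leaving out each array. The genes and lists were chosen with earlier results of these data known. Named in the text by rule were the 3 members with the smallest p per comparison, with Axin2, Lef1, Lgr5 and Tcf7, and the other members named stand by role or by their range. The GC box and TATA searches were chosen after the data were seen. Promoter windows are RefSeq's, on GRCm38.p6.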

Additional observations from a re-analysis of the deposited data

Results flagged for a closer look

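Single tumours stood apart from the rest of their group, by Dixon's criterion, in 10 of 156 combinations of member and group, and chance gives about 1 in 20, or 7.8. Wnt7b was 5.13 in double-labelled tumour 5 and 4.41 to 4.67 in the other 5. Fzd4 was 7.95 in double-labelled tumour 6 and 5.54 to 6.32 in the other 5.

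Itgb1 knockout 1 stood apart 3 times: Fzd7 was 9.20 there and 8.04 to 8.13 in the other 3, Lrp6 was 10.37 there and 9.89 to 9.95 in the others, and Rspo1 was 5.92 there and 5.61 to 5.65 in the others. Itgb3 knockout 1 stood apart 3 times on the low side, with Fzd3 at 5.74 beside 6.04 to 6.09, Fzd6 at 7.64 beside 8.30 to 8.31, and Sfrp1 at 8.64 beside 8.76 to 8.78. Axin2 was 5.70 in Itgb3 knockout 2 and 5.27 to 5.31 in the other 3. Ryk was 9.51 in control tumour 2 and 10.01 to 10.17 in the other 4.

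The double-labelled and Itgb3 knockout groups, each set against the same controls, differed in Wnt5a by 0.91 on the log2 scale (limma adjusted p = 0.0182), higher in 6 of 6 double-labelled tumours. That test is the direct comparison of both knockout groups.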

How the results depend on the processing

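Among the members named by rule and the counts, 0 results reversed under the alternatives run (10, or 9 for Lef1 and for the interaction) or with any of the 19 arrays left out. Outside these, Ryk and Sfrp2, both close to 0 between double-labelled tumours and controls, moved to above 0 with centred arrays. The Wnt5a difference between double-labelled and control tumours was 1.01 to 1.15 over the alternatives and 1.00 to 1.20 with an array left out, and it passed in all of these fits but that of only the groups compared (adjusted p = 0.0804, range 0.00537 to 0.0804). Members that passed in that comparison (1) were 2 with centred arrays, where Fzd5 was added, and 0 with only the groups compared, and 1 to 2 with an array left out, Fzd5 being added without control tumour 5. Against Itgb1 knockouts (0) they were 1 with array weights and 0 to 1 with an array left out, the 1 being Wnt5a without Itgb1 knockout 1. Against Itgb3 knockouts (1) they were 4 with centred arrays, 3 with only the groups compared, 4 with array weights, 2 with probe sets averaged, 0 with the fibroblast covariate and 0 to 2 with an array left out.

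Genes that passed over the whole table moved more. Double-labelled against control (55) gave 27 without the filter, 100 with centred arrays, 31 after quantile normalization, 2 with only the groups compared, 31 with array weights, 26 with an intensity trend, 26 with the fibroblast covariate, and 14 to 125 with an array left out. Double-labelled against Itgb3 knockouts (408) gave 1226 with centred arrays, 231 after quantile normalization, 1568 with array weights, 21 with the fibroblast covariate, and 56 to 459 with an array left out. Double-labelled against Itgb1 knockouts (3) gave 7 with only the groups compared, 33 with array weights, and 0 to 24 with an array left out. The interaction (0) gave 3 with array weights and 0 to 5 with an array left out. Itgb1 knockouts against control (1) gave 0 with array weights, 0 with the fibroblast covariate, and 0 to 1 with an array left out. The cause was not tested. Centring moved the median of all genes to 0.14 from 0.03 for double-labelled against Itgb3 knockouts and to 0.11 from 0.01 for the interaction. No paired analysis was possible because the labels carry no replicate numbers. Genes near the median of the table, Wnt5a in controls among them, lie close to the filter.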
